A study of Mus musculus with 30 samples.

Results

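The aortic transcriptome of mice with and without the EGF receptor (EGFR) in vascular smooth muscle was compared on standard-fat diet (SFD), in 3 WT mice (WT-SFD-1309, WT-SFD-1310 and WT-SFD-1445) against 3 KO mice (KO-SFD-1319, then KO-SFD-1452, then KO-SFD-1507), across all genes. Values for single mice are given in this order within each genotype. These 6 libraries were chosen by the genotype, diet and tissue in their labels, and the whole series has 30 libraries. KO mice carried Egfr flox/flox together with an inducible Cre recombinase (Smmhc-CreERT2), which is driven by the smooth muscle myosin promoter of Myh11. WT mice carried the same Cre and no loxP sites, and mice of both genotypes received tamoxifen at 1 mg per day for 5 days. All mice were males labelled C57Bl6J, the diet began at 6 weeks of age, 7 days after tamoxifen, and lasted 18 weeks. The study's methods differ from that label, giving C57BL/6 for the floxed line and C57BL/6N for the Cre line. Cre activity is confined by its promoter to smooth muscle, so that other cells of the KO aorta keep an intact Egfr. Each library held RNA from the aorta of a separate mouse. The p values therefore measure the spread between mice. The same genotypes on high-fat diet (HFD, 4 WT and 4 KO aortae) and the kidneys of 16 mice served as further comparisons. WT-SFD-1309 and KO-SFD-1319 also gave kidneys.

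EGFR is a receptor tyrosine kinase that pairs with itself or with its relatives ErbB2, ErbB3 and ErbB4 when a ligand such as EGF, heparin-binding EGF or amphiregulin binds. It signals through adaptor proteins to the Ras-ERK cascade, which switches on immediate early genes and inhibitors that damp the signal. In vascular smooth muscle EGFR is also activated indirectly by the receptors of angiotensin II, endothelin and thrombin, and it takes part in growth, contraction and matrix turnover.

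In brief, the Egfr transcript was lower in KO, without overlap of the groups once libraries were scaled by TMM factors (trimmed mean of M values), but its change did not pass the limit over all genes (edgeR adjusted p 0.531), and few genes did. Of 14796 genes tested, 12 (0.0811%) had an adjusted p under 0.05 by edgeR's quasi-likelihood test. They were Adcy1, which encodes a calmodulin-activated adenylyl cyclase and was 58.0-fold higher in KO, 7 members of a repeated gene cluster on chromosome 4, a pair of copies of the Pisd gene, the thrombin receptor gene F2r and the actin nucleator gene Cobl. Beyond Adcy1, none of the listed genes of the EGFR pathway, the contractile apparatus, cAMP signalling or the matrix passed this limit.

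The sequences before the start of the 4 single-copy genes on which the comparison turned are shown because 3 of them were higher and Egfr was lower in KO. Each holds the 250 bases upstream of the RefSeq start (GRCm38.p6), read on the strand of the gene. Capitals mark matches to motifs searched on both strands. The motif searched for the cAMP response element was TGACGTCA. The motif of the E-box was CACGTG, and that of the GC box, which binds Sp1, was GGGCGG. The motif for AP-1, the Fos and Jun factor, was TGAGTCA, and for the TATA box it was TATAAA. The CArG box, which binds SRF, was searched as well. The windows were chr11:7063183-7063432 (plus strand) for Adcy1, chr13:95618467-95618716 (minus strand) for F2r, chr11:12464961-12465210 (minus strand) for Cobl and chr11:16751953-16752202 (plus strand) for Egfr.
Adcy1: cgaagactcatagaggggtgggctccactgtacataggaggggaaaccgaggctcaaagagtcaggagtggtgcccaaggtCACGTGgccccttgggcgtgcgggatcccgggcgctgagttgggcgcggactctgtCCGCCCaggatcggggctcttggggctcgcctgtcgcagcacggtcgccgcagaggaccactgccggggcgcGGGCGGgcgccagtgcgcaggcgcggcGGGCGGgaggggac
F2r: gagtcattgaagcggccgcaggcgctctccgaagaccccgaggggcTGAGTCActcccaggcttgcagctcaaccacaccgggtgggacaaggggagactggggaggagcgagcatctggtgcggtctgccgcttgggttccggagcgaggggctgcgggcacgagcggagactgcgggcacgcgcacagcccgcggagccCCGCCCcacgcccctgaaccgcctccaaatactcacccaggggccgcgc
Cobl: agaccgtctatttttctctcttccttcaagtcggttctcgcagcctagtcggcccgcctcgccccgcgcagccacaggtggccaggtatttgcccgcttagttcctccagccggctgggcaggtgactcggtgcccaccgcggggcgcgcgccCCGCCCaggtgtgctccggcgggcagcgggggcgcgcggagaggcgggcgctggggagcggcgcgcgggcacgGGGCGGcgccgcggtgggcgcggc
Egfr: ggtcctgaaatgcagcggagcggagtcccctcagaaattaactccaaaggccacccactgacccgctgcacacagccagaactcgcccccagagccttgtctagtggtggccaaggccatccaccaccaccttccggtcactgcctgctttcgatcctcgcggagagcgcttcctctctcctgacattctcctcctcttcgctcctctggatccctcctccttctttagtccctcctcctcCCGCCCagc
The Adcy1 window held 1 E-box, which 6.02% of the 32851 RefSeq promoters of this length hold, and 3 GC boxes. The F2r window held 1 AP-1 site, found in 4.46% of promoters, and 1 GC box. The Cobl window held 2 GC boxes and the Egfr window 1, a motif present in 32.7% of promoters. The letters of the cAMP response element (1.55% of promoters), the TATA box (12.4%) and the CArG box (1.47%) were in none of the 4 windows. The 4 windows had 60.8% to 75.2% G and C, against a median of 52.4% over all promoters.

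For the repeated genes the sequences show how alike the copies are. A stretch of 100 bases of the Gm10600 transcript (bases 503 to 602, GENCODE vM21) occurred unchanged in 6 of the 7 chromosome 4 genes that passed the test and in 12 annotated genes in all. It was picked from the stretches carried by the most of these 7 genes.
Gm10600: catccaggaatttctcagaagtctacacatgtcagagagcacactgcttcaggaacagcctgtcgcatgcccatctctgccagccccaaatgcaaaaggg
A window of 90 bases of Pisd, which encodes the mitochondrial phosphatidylserine decarboxylase, is shown beside the same window of its copies Pisd-ps1 and Pisd-ps2, with capitals at each base that differs from Pisd. It was picked within the coding sequence for the most differences between the copies, so it is less alike than the rest.
Pisd: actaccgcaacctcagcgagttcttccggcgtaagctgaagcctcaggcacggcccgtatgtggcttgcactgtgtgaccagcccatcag
Pisd-ps1: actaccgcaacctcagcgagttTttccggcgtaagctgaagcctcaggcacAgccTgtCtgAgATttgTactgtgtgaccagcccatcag
Pisd-ps2: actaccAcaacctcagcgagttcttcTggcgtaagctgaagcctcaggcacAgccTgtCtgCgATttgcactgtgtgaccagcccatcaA
In this window Pisd-ps1 differed from Pisd at 8 bases, Pisd-ps2 differed from Pisd at 9, and the copies differed from each other at 6. Over 1043 aligned bases, 96.4% were identical between the copies.

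The 6 libraries held 8346864, 10466922 and 7680588 counts in WT and 7793529, 6403699 and 8915275 counts in KO. Levels are given as FPM, counts divided by library size, as edgeR's CPM, with library sizes scaled by its TMM factors. Small and structural RNAs took 28.4% to 31.2% of the counts in the 3 WT libraries and in KO-SFD-1319 (29.6%), but 20.8% in KO-SFD-1452 and 20.5% in KO-SFD-1507. With TMM factors the median log2 fold change (KO over WT) of all genes was −0.03, and with library totals alone it was 0.27. All changes below are relative to the TMM scale. RNA was prepared from the whole vessel, which per the labels had been freed of surrounding fat. Transcripts of smooth muscle cells were abundant in every library: the summed level of 4 smooth muscle markers, led by Acta2, was 9791, 12089 and 15141 FPM in WT against 10522, 15724 and 16386 FPM in KO. Endothelial markers, led by Pecam1, were also present throughout, at 962, 1173 and 974 FPM in the WT mice and 1094, 910 and 918 FPM in the KO mice. The defining markers of the vessel wall were thus detected in all 6 aortae.

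Markers of other cell types differed far more between mice. The 20 adipocyte markers, led by Lpl, summed to 12216, 9612 and 853 FPM in WT and to 8190, 2774 and 821 FPM in KO. WT-SFD-1445 and KO-SFD-1507 were thus poor in adipocyte transcripts within either genotype. The 12 brown adipocyte markers, led by Ucp1, followed the same order, with 40.3 FPM in WT-SFD-1445 and 38.3 FPM in KO-SFD-1507 against 340 to 1478 FPM in the other 4. Leucocyte markers separated the genotypes: the 14 markers, led by Cd74, summed to 245, 218 and 209 FPM in WT and to 512, 334 and 331 FPM in KO. Immunoglobulin transcripts stood out in a single KO mouse, with 2829 FPM in KO-SFD-1319 and 16.03 to 49.3 FPM in the other 5 libraries. Blood markers, led by Hbb-bt, summed to 399.7 FPM in WT-SFD-1445, 367 FPM in KO-SFD-1452 and 346 FPM in KO-SFD-1507, against 14.05 to 29.3 FPM in the other 3 mice. In whole tissue, fewer cells of a type and less RNA per cell cannot be told apart.

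**Figure D1:**
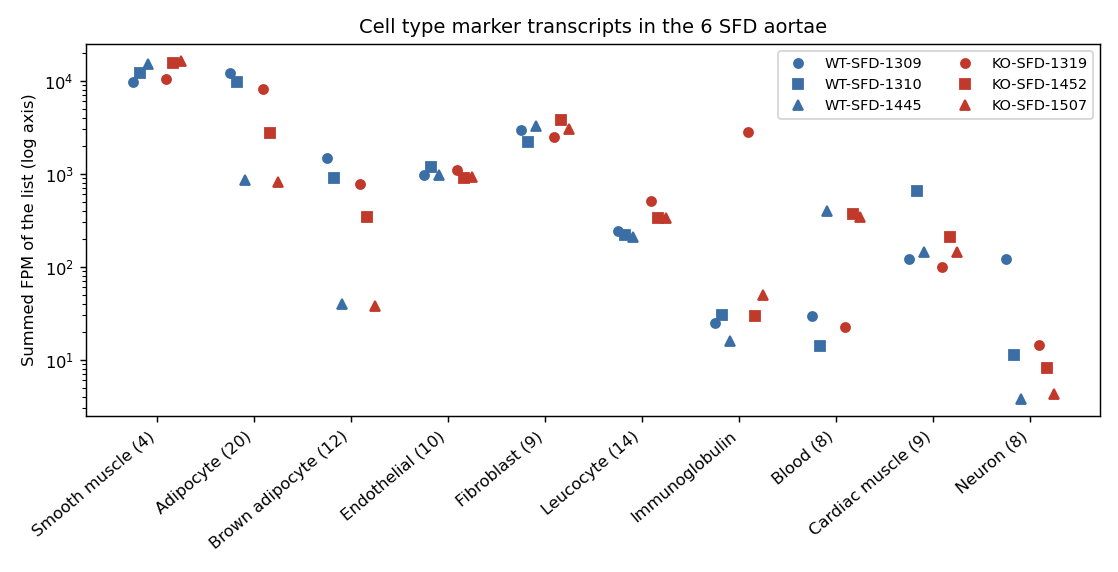
Summed FPM (log axis) of the markers of 9 cell types and of immunoglobulin genes in the 6 SFD aortae, with 1 point per mouse and the number of markers in brackets. Smooth muscle sums lay between 9791 and 16386 FPM, whereas adipocyte sums ran from 821 to 12216 FPM and overlapped between the genotypes.

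Egfr was measured to check the genotype. Its level was 46.7, 39.5 and 54.3 in WT and 26.8, 35.5 and 28.0 FPM in KO. All 3 KO mice were below all 3 WT mice on this scale, and KO retained a ratio of 0.643 of the WT mean (46.8 ± 7.41 against 30.1 ± 4.73 FPM, SD, n = 3 each). This gave a log2 fold change of −0.64 ± 0.17 (SE, as beside every log2 fold change below). The unadjusted p was 0.00166 and the edgeR adjusted p was 0.531, so the reduction did not pass the limit over all genes. Without TMM factors the groups overlapped: as CPM of the library totals, Egfr was at 41.0, 36.8 and 48.95 in the WT mice and 25.7, 39.8 and 34.7 in the KO mice, so that KO-SFD-1452 lay above WT-SFD-1310. The log2 fold change was then −0.34 (edgeR unadjusted p 0.0994), and with WT-SFD-1445 and KO-SFD-1507 both left out it was −0.42 (edgeR unadjusted p 0.0516). The HFD mice gave a log2 fold change of −0.70 ± 0.14 (adjusted p 0.13), again with no overlap. The kidneys of SFD mice gave 0.09 (unadjusted p 0.518, edgeR). Egfros, an antisense transcript within Egfr, had a log2 fold change of −0.70 (unadjusted p 0.0729, edgeR), but the strand setting of the counting is not given in the sources used here, so that its reads and those of Egfr cannot be told apart.

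The other EGFR family receptors did not pass the test. Erbb2, the shared partner of the family, had a log2 fold change of −0.00 ± 0.16 and Erbb4 of −0.05 ± 0.13. Erbb3, a receptor for neuregulins that has little kinase activity of its own, was at 7.92, 4.10 and 3.03 FPM in WT against 2.81, 0.975 and 1.90 FPM in KO. Its KO mice were all below the WT mice, with a log2 fold change of −1.39 ± 0.42 (edgeR unadjusted p 0.0051, adjusted p 0.644). On HFD the change of Erbb3 was 0.15 ± 0.43, with overlapping groups. Over the 4 receptors the median log2 fold change was −0.34. Neuron markers were also highest in WT-SFD-1309, and the part of nerve tissue in the Erbb3 values was not tested.

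Few genes of the ligands and of the cascade below the receptor had an unadjusted p under 0.05. Across all genes tested, 3.03% had an unadjusted p under 0.05 and were higher in KO, and 3.5% were lower. Members of a list counted as higher or lower are those with an unadjusted p under 0.05. Fits without a single mouse set the low-count filter anew, so the number tested can differ. Over all genes, 903 were higher and 1529 lower without WT-SFD-1445, and 586 and 1231 without KO-SFD-1319. Of 11 ligands, 6 were tested and none had an unadjusted p under 0.05 in either direction. Their median log2 fold change was 0.27, with the largest value for Btc, betacellulin, at 0.60 ± 0.35 and overlapping groups. Without WT-SFD-1445 or without KO-SFD-1319, 1 of the 6 ligands was higher, and without KO-SFD-1507 the median was 0.12. Areg (amphiregulin) and Epgn (epigen) had at most 0.103 FPM in any of the 6 libraries. None of the 16 tested adaptors and members of the Ras-ERK cascade had an unadjusted p under 0.05 (median −0.01), and none of the 12 tested feedback inhibitors, among them the sprouty genes, Errfi1 and Dusp6, had either (median 0.05). Of 23 immediate early genes, 1 had an unadjusted p under 0.05. This was Klf10, a TGF-beta inducible repressor, with 34.0, 36.9 and 39.3 FPM in the WT mice and 28.8, 15.9 and 26.8 FPM in the KO mice. Its groups did not overlap, and its log2 fold change was −0.62 ± 0.21 (adjusted p 0.708). The median of the immediate early genes was 0.04. These counts turned on single mice. Without KO-SFD-1452, 1 of the 23 was higher and none lower, so that Klf10 was no longer counted. Without WT-SFD-1445, 8 of the 23 were higher and 1 lower (median 0.47), beside 5.89% of all genes that were higher and 9.97% that were lower, and 3 of the 12 feedback inhibitors were higher and 2 lower.

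Counts of genes over the whole comparison were small. With the limit of the study's methods, an adjusted p under 0.001, 4 genes (0.027%) were called by edgeR, 2 higher and 2 lower in KO. At 0.05, 10 genes (0.0676%) were higher and 2 (0.0135%) lower. Without adjustment 967 genes (6.54%) had p under 0.05. The 3 KO mice did not overlap the 3 WT mice in 1268 genes (8.57%), of which 622 (4.2%) were higher and 646 (4.37%) lower in KO. With 3 mice per group an exact permutation test of a single gene cannot give a two-sided p below 0.1. The number of calls at 0.05 was 61 without WT-SFD-1445, the WT mouse poor in adipocyte transcripts, 5 without WT-SFD-1310, and 8 to 11 when any of the other 4 mice was left out. At 0.001 it was 7 without WT-SFD-1445 and 1 without KO-SFD-1507. The number without adjustment was 2432 without WT-SFD-1445 and 1817 without KO-SFD-1319.

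**Figure D2:**
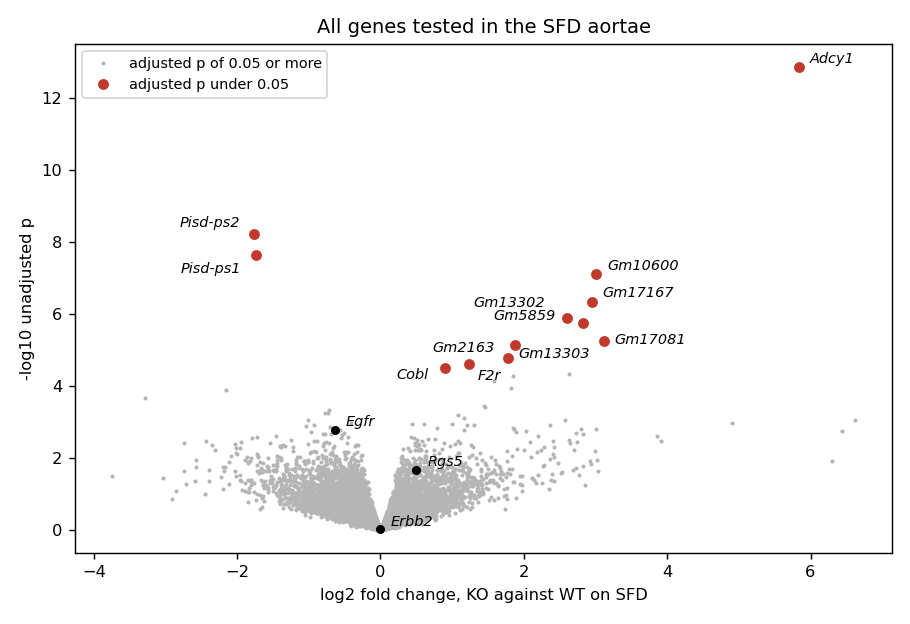
Log2 fold change (KO against WT on SFD) and −log10 unadjusted p of each of the 14796 genes tested, with the 12 genes at an adjusted p under 0.05 in red. Adcy1 lies apart at 5.84, and Egfr, Rgs5 and Erbb2 (black) lie within the main cloud.

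Adcy1 showed the largest change of the genes called. It lies at chr11:7063489-7178506 (plus strand) and was at 4.64, 4.61 and 3.03 in WT and 198, 227 and 289 FPM in KO. The lowest KO mouse was far above the highest WT mouse. The log2 fold change was 5.84 ± 0.23 (edgeR adjusted p 2.0e-09), and it stayed between 5.68 and 5.96 when any SFD mouse was left out. Adcy1 encodes a membrane adenylyl cyclase known mainly from neurons, in which calcium and calmodulin raise its activity. Neuron markers summed to 14.5, 8.08 and 4.26 FPM in KO and to 121, 11.2 and 3.75 FPM in WT, and the highest sum was in a WT mouse.

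The other cyclases did not follow Adcy1. Of the 9 adenylyl cyclases tested, Adcy1 alone passed the adjusted limit, and Adcy1 and Adcy4 had an unadjusted p under 0.05. Adcy4 was at 24.4, 37.7 and 23.1 FPM in WT against 26.0, 15.3 and 15.9 FPM in KO, with overlapping groups and a log2 fold change of −0.58 ± 0.21 (edgeR unadjusted p 0.0132, adjusted p 0.708). Adcy5 and Adcy6, the forms best known from the cardiovascular system, had log2 fold changes of 0.05 ± 0.21 and −0.19 ± 0.14. The median over all 9 was 0.05. The number of lower cyclases was 4 without WT-SFD-1445, 3 without KO-SFD-1319, and 0 without WT-SFD-1310, KO-SFD-1452 or KO-SFD-1507. Of 25 tested cAMP effectors and phosphodiesterases, which bind or break down the cyclase product, 1 had an unadjusted p under 0.05 and was higher, and 2 were lower, with a median of −0.19. Pde4b, a cAMP phosphodiesterase, had a log2 fold change of 0.35, Prkaca, the catalytic subunit of protein kinase A, of −0.49, and Prkar1b, a regulatory subunit, of −1.405, all 3 with overlapping groups. Of 13 tested genes known to be induced by cAMP, Pde4b was again the only member with an unadjusted p under 0.05 (median −0.08). Without WT-SFD-1445, 7 cAMP effectors were lower and none higher, and 4 cAMP-induced genes were higher and 1 lower (median 0.28). Without KO-SFD-1319, 7 effectors were lower and 1 higher, and 2 cAMP-induced genes were lower and 1 higher (median −0.35). Of all genes, 5.89% were higher and 9.97% lower without WT-SFD-1445, and 3.85% were higher and 8.08% lower without KO-SFD-1319.

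**Figure D3:**
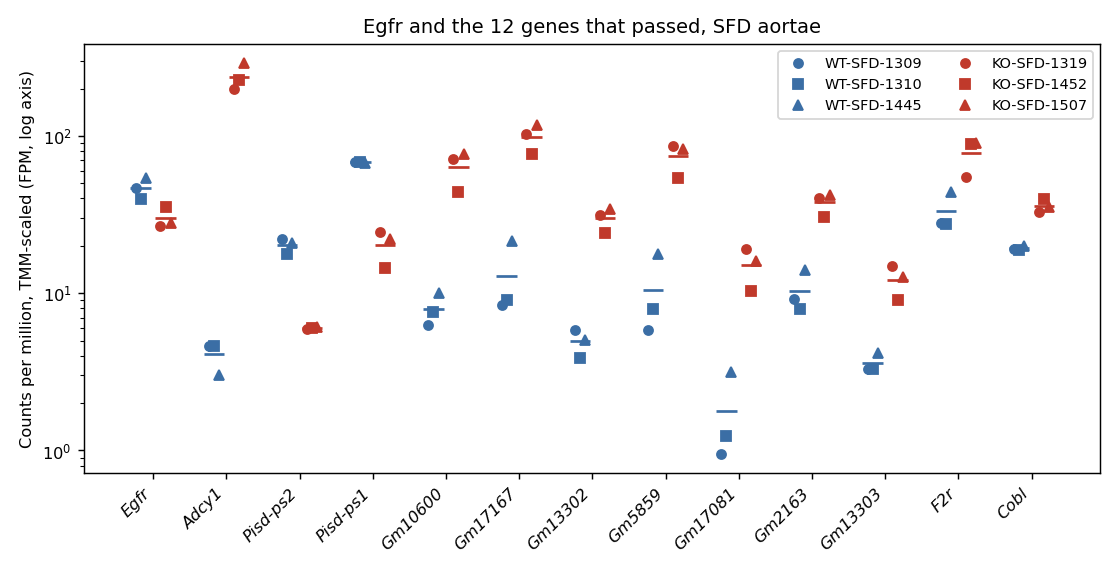
FPM per mouse (log axis) of Egfr and the 12 genes with an adjusted p under 0.05, with WT in blue, KO in red and a bar at each group mean. The 3 KO mice lie outside the range of the 3 WT mice for each of these 13 genes on the TMM scale shown, and with library totals for the 12 genes but not for Egfr.

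Members of a repeated cluster on chromosome 4 rose in KO. Gm10600 was at 6.28, 7.59 and 9.96 FPM in the WT mice and 71.0, 43.9 and 76.5 FPM in the KO mice, a log2 fold change of 3.01 ± 0.31 (edgeR adjusted p 0.000278). Gm17167 was at 8.46, 9.02 and 21.4 in WT and 103, 76.6 and 117 FPM in KO, a log2 fold change of 2.95 ± 0.35. In both genes the KO mice were all above the WT mice, and WT-SFD-1445 was the highest WT mouse. Gm5859 was at 5.87, 7.90 and 17.8 FPM in WT against 86.5, 54.1 and 82.0 FPM in KO (log2 fold change 2.83 ± 0.37). Gm17081 was at 0.955, 1.23 and 3.18 FPM in the WT mice and 19.2, 10.3 and 15.95 FPM in the KO mice (log2 fold change 3.11 ± 0.45). Again KO-SFD-1452 was the lowest of the KO mice and WT-SFD-1445 the highest of the WT mice. The log2 fold changes of Gm13302, Gm2163 and Gm13303 were 2.61 ± 0.33, 1.88 ± 0.28 and 1.77 ± 0.28, and none of their groups overlapped. The adjusted p of these 7 genes (edgeR) ran from 0.000278 for Gm10600 to 0.0249 for Gm13303.

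The 7 genes lie within chr4:41893388-42589938. Of 28 tested genes in this span of 697 kb, 16 (57.1%) had an unadjusted p under 0.05, all higher in KO, and 17 (60.7%) had groups that did not overlap. Elsewhere on chromosome 4, 6.74% of 1083 tested genes had an unadjusted p under 0.05. The span was drawn around genes that had passed, so these shares are a description. The median log2 fold change was 1.11 in the span and −0.04 outside it. Gm13301, at 2.63 ± 0.46, fell just short of the limit (adjusted p 0.0537, edgeR). With the mean of the adipocyte markers as a covariate, its adjusted p was 0.000627 (edgeR). Gm3893, Gm3892, Gm10593 and Gm3883 of the span also passed 0.05 in that fit. Not all genes of the span were higher: Ccl21b, which encodes a lymphoid chemokine, had −0.23, Gm13304 had −0.52 and Gm21541 had −0.42, all with overlapping groups. The copies share long runs of sequence. Of all stretches of 100 bases of its transcripts, 84.6% in Gm10600, 58.6% in Gm17167 and 100% in Gm13303 also occur in other annotated genes, and the handling of reads that fit several places is not given in the sources used here. The copies from which the reads came are therefore uncertain, and the 7 genes are not 7 separate results.

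The 2 genes that fell at an adjusted p under 0.05 in edgeR were copies of Pisd. Pisd-ps2 (chr17:3076578-3084183) was at 22.2, 17.8 and 20.9 in WT and 5.89, 5.99 and 6.07 FPM in KO. Its log2 fold change was −1.76 ± 0.15 (edgeR adjusted p 4.44e-05). Pisd-ps1 (chr11:3125904-3131004) was at 68.7, 67.8 and 67.0 FPM in WT against 24.4, 14.5 and 22.0 FPM in KO, a log2 fold change of −1.74 ± 0.16 (adjusted p 0.000111). Pisd-ps2 in KO and Pisd-ps1 in WT varied little, KO-SFD-1452 was the lowest KO mouse for Pisd-ps1, and for both copies all KO mice were below all WT mice. Pisd itself was at 22.7, 16.1 and 17.2 FPM in the WT mice and 12.9, 13.8 and 9.25 FPM in the KO mice. These groups did not overlap either, but the log2 fold change of −0.65 ± 0.19 did not pass (edgeR unadjusted p 0.00473, adjusted p 0.635). Pisd shared 15.9% of its stretches of 100 bases with other genes, Pisd-ps2 shared 1.84% and Pisd-ps1 shared 0%.

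F2r rose in KO. It encodes PAR1, the protease-activated receptor through which thrombin acts on smooth muscle, endothelium and platelets, and lies at chr13:95601803-95618487. Its level was 28.1, 27.6 and 44.0 in WT and 54.9, 88.5 and 90.4 FPM in KO. The groups did not overlap, and WT-SFD-1445 and KO-SFD-1319 were nearest to each other. The log2 fold change was 1.23 ± 0.20 (edgeR adjusted p 0.0323). The adjusted p was 0.232 without WT-SFD-1309, 0.264 without WT-SFD-1310, 0.137 without KO-SFD-1452 and 0.128 without KO-SFD-1507, so that the call was lost without any of these. The other thrombin and protease receptors, F2rl1, F2rl2 and F2rl3, had log2 fold changes of −0.34, −0.11 and 0.55 with overlapping groups. These were looked up after the result of F2r was known.

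Cobl also rose. It encodes cordon-bleu, a protein that nucleates actin filaments, and lies at chr11:12236608-12464960, within 10 Mb of Egfr. Its level was 19.1, 18.8 and 19.9 FPM in WT against 32.7, 39.98 and 35.4 FPM in KO. The WT mice were close together, and all KO mice were above them. Its log2 fold change was 0.90 ± 0.15 (edgeR adjusted p 0.0385). The call was held without WT-SFD-1445 (adjusted p 0.0427) and lost without any of the other 5 mice, where the adjusted p ran from 0.0613 to 0.264.

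Chromosome 4 members also depended on single mice. Without WT-SFD-1310 the calls of Gm13302, Gm5859, Gm17081, Gm2163 and Gm13303 were lost, and without WT-SFD-1309 those of Gm17081, Gm2163 and Gm13303. Gm13303 was lost as well without KO-SFD-1319 or KO-SFD-1507. Adcy1, both Pisd copies, Gm10600 and Gm17167 passed the limit of 0.05 in all 6 fits that left out an SFD mouse. With the 6 SFD libraries fitted alone, without the HFD aortae that share the estimate of the spread, 4 of the 12 calls were left (edgeR): Adcy1 (adjusted p 0.000529), Gm13302 (0.0329), Gm10600 (0.0362) and Pisd-ps2 (0.0462). Pisd-ps1 (adjusted p 0.118), Gm17167 and Gm2163 (0.216), Gm13303 (0.292), Cobl, Gm5859 and Gm17081 (0.327) and F2r (0.961) lost their calls in that fit, with log2 fold changes close to those given above.

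The same genes were then read in the HFD aortae, which came from other mice but were in the same fit. Of the 12 genes called on SFD, 11 were among the 12 genes (0.0811%) called on HFD, which is 91.7% of either list. The 12 include the 7 chromosome 4 copies that share sequence and both Pisd copies, so they are not 12 separate results. All 12 had the same sign and an unadjusted p under 0.05 on HFD, as 5.35% of all genes did in either direction, and 11 had HFD groups that did not overlap (4.18% of all genes). Adcy1 was at 6.27 to 8.36 FPM in 4 WT-HFD mice and 242 to 388 FPM in 4 KO-HFD mice, a log2 fold change of 5.38 ± 0.19. Pisd-ps1 had −1.88 ± 0.14 and Pisd-ps2 had −1.50 ± 0.13. Gm10600 had 2.73 ± 0.26, and F2r had 1.02 ± 0.17. Cobl was the exception. Its log2 fold change on HFD was 0.41 ± 0.13 (adjusted p 0.662, edgeR), and WT-HFD-1442, at 31.2 FPM, overlapped the KO mice. The test of the difference between the diets gave an unadjusted p of 0.0267 for Cobl. In a test of that difference over all genes, none had an adjusted p under 0.05 by edgeR, 646 (4.37%) had an unadjusted p under 0.05, and DESeq2 called 2.

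In the kidney, where 10 of the 12 genes were tested, the picture differed from gene to gene. On SFD edgeR called 2 kidney genes (0.0133%), and Pisd-ps2 was 1 of them, with a log2 fold change of −1.52 (adjusted p 0.0271). Pisd-ps1 had −1.22 (adjusted p 0.0984). The kidney calls rested on single mice, as none was left without KO-SFD-1303, KO-SFD-1318 or KO-SFD-1319, and 1 without WT-SFD-1446, WT-SFD-1694 or WT-SFD-1695. Of the 10 genes, 6 had an unadjusted p under 0.05, against 8.69% of 15034 kidney genes tested. They were Adcy1, both Pisd copies, Gm10600, Gm17167 and Gm5859, and they are not 6 separate results. Gm10600, Gm17167 and Gm5859 share sequence and had at most 2.86 FPM in any SFD kidney. Adcy1 was lower, not higher: the SFD kidneys held 24.9, 14.1, 27.0 and 16.8 FPM in the WT mice and 13.9, 5.77, 12.0 and 8.63 FPM in the KO mice. All 4 KO kidneys were below the lowest WT kidney, and the log2 fold change was −1.04 (edgeR unadjusted p 0.00315, adjusted p 0.432). F2r had −0.68 and Cobl 0.08. Gm10600 had 1.66 (edgeR unadjusted p 0.0025). The other kidney call was Camk2b, a subunit of calmodulin kinase II, with −4.34 (adjusted p 0.0271, edgeR), whereas Camk2b in the SFD aorta had 0.33 (unadjusted p 0.18). On HFD no kidney gene was called by edgeR, 263 (1.75%) had an unadjusted p under 0.05, and DESeq2 called 1. There Camk2b had a log2 fold change of −3.78 (adjusted p 0.0847, edgeR), Pisd-ps2 −0.54 and Pisd-ps1 −0.37. Aorta and kidney were not fitted together, so differences between the tissues were not tested.

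**Figure D4:**
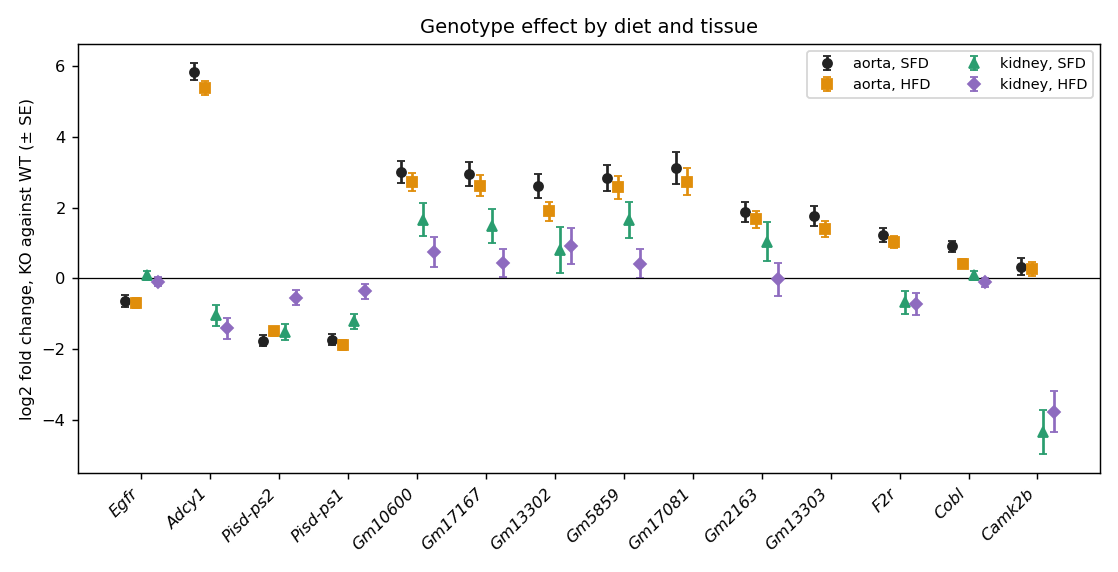
Log2 fold change of KO against WT (points) with its SE (bars) for Egfr, the 12 called genes and Camk2b in the aorta and kidney on both diets. The aortic values on SFD and HFD have the same sign for Egfr and the 12 called genes, with Cobl at 0.90 and 0.41, Adcy1 and F2r are below 0 in the kidney, and Gm17081 and Gm13303 have no kidney points because they were not tested there.

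Next in rank came protein-coding genes that did not pass the limit but had groups that did not overlap and a group mean of at least 5 FPM. With the 5 protein-coding genes called above, 5 more made up the 10 higher in KO of smallest p. These were Gm3893 and Gm2564 of chromosome 4 (log2 fold change 1.84 and 1.08), Trim36, a ubiquitin ligase gene (1.17), Snx2, a sorting nexin gene (0.44), and Ptprk, a receptor-type tyrosine phosphatase gene (0.60). Ptprk was at 21.6, 23.3 and 22.5 in WT and 30.1, 35.7 and 36.5 FPM in KO. Its unadjusted p by edgeR was 0.00116, and its log2 fold change on HFD was 0.32 with overlapping groups. Trim36 and Snx2 had HFD values of −0.07 and −0.06. The difference between the diets had an adjusted p of 0.96 for both (edgeR), and these genes were chosen for a small p on SFD.

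Lower in KO were Cd59a, Txnip, Cdyl, Nap1l5, Zc3h13, BC004004, Egfr, Tecpr1, Mrps27 and Cog7, with log2 fold changes of −1.01 for Nap1l5 to −0.41 for Zc3h13. Cd59a, which shields cells from complement, was at 60.6, 81.6 and 56.2 FPM in WT against 37.1, 44.0 and 39.3 FPM in KO. The log2 fold change was −0.72 ± 0.16 on SFD (edgeR unadjusted p 0.000483, adjusted p 0.34) and −0.74 ± 0.14 on HFD, with no overlap on either diet. In the SFD kidney Cd59a had 0.39 (unadjusted p 0.0196, edgeR). Txnip, a glucose-responsive inhibitor of thioredoxin, was at 486, 375 and 353 FPM in the WT mice and 245, 219.5 and 247 FPM in the KO mice. The lack of overlap on SFD was a condition for naming these genes. The log2 fold change of Txnip was −0.77 ± 0.18 on SFD (edgeR adjusted p 0.362) and −0.00 ± 0.15 on HFD. The difference between the diets had an adjusted p of 0.998 by edgeR. Cdyl, a chromodomain repressor gene, had −0.74 on SFD and −0.47 on HFD, without overlap on either diet. The adjusted p on SFD was 0.34 or above for each of these 10 genes. With the mean of the adipocyte markers as a covariate, Cdyl passed the limit (log2 fold change −0.82, edgeR adjusted p 0.0211). With library totals in place of TMM factors the groups of 6 of the 10 overlapped, those of Egfr, Cdyl, Zc3h13, BC004004, Tecpr1 and Mrps27, whereas the 5 genes named as higher stayed apart.

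Contractile genes differed little with all 6 mice in the comparison. None of 16 tested genes of the smooth muscle contractile apparatus had an unadjusted p under 0.05, and their median log2 fold change was 0.13. Without KO-SFD-1319, however, 5 of the 16 were higher and 1 lower (median 0.28), beside 3.85% of all genes that were higher. Without WT-SFD-1445, 4 were higher and 1 lower (median 0.32). The median was −0.02 without WT-SFD-1309 and 0.07 without KO-SFD-1507, with none counted in either fit. Acta2, smooth muscle actin, had 0.28 ± 0.26 and Myh11, the smooth muscle myosin heavy chain, 0.13 ± 0.24. Of 7 tested genes for SRF, the transcription factor of contractile and immediate early genes, and its cofactors, 1 had an unadjusted p under 0.05. This was the cofactor gene Mrtfa, at 27.8, 26.0 and 28.3 in WT and 33.2, 31.2 and 38.5 FPM in KO (log2 fold change 0.33 ± 0.13). Srf had 0.10 ± 0.12, and Sp1, another widely acting transcription factor gene, had 0.04 ± 0.09. The groups of Mrtfa did not overlap, whereas those of Srf and Sp1 did. The median of the SRF list was 0.06. No gene of this list was counted without WT-SFD-1310 or without KO-SFD-1507, and 1 was higher and 1 lower without WT-SFD-1445.

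Of receptors that contract the vessel, such as those of angiotensin II, endothelin and noradrenaline, none of 14 tested had an unadjusted p under 0.05 (median −0.15). Without KO-SFD-1319, 2 were higher and 2 lower, without WT-SFD-1445, 1 was higher and 2 lower, and without WT-SFD-1309 the median was 0.07 with no such gene. Of receptors that relax it, 2 of 11 did and were higher in KO (median 0.09). Ptgir, the prostacyclin receptor gene, was at 4.91, 5.02 and 3.61 FPM in WT against 5.22, 8.22 and 7.16 FPM in KO. Ptger4, a prostaglandin E2 receptor gene, was at 9.01, 9.23 and 9.10 FPM in the WT mice and 16.1, 9.89 and 11.5 FPM in the KO mice. All KO mice were above the WT mice for both, by a narrow margin for the lowest KO mouse, and the log2 fold changes were 0.60 and 0.45. Of the relaxant receptors 3 were higher and 2 lower without WT-SFD-1445, and 1 was higher when any of the other 5 mice was left out, with 1 lower without KO-SFD-1319. None of 25 tested genes for calcium handling and ion channels had an unadjusted p under 0.05 (median 0.10), but 6 were higher and 3 lower without WT-SFD-1445, and 2 were lower without WT-SFD-1309. Over all genes, 903 were higher and 1529 lower without WT-SFD-1445, against 449 and 518 with all 6 mice. Of 10 tested genes of the nitric oxide and cGMP pathway, Nos3, endothelial nitric oxide synthase, was at −0.42 (unadjusted p 0.0485, edgeR) with overlapping groups, and the median was 0.01. No gene of that pathway was counted without WT-SFD-1309, WT-SFD-1310, KO-SFD-1452 or KO-SFD-1507, and 2 were higher and 1 lower without WT-SFD-1445.

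Regulators of G protein signalling shorten the action of such receptors. Rgs5, the form typical of arterial smooth muscle and pericytes, was at 1393, 1626 and 1568 in WT and 2042, 1681 and 2764 FPM in KO. The groups did not overlap, although KO-SFD-1452 was only just above the highest WT mouse. The log2 fold change was 0.50 ± 0.19 (edgeR unadjusted p 0.0214, adjusted p 0.708) on SFD and 0.78 ± 0.17 on HFD (adjusted p 0.176). Of 14 tested members, Rgs5 and Rgs1 had an unadjusted p under 0.05 and were higher, and the median was −0.01. The number higher was 4 of 16 without WT-SFD-1445, 3 without WT-SFD-1310 or KO-SFD-1452, and 1 without WT-SFD-1309 or KO-SFD-1507. Rgs1, a leucocyte form, was at 0.136, 0.615 and 0.144 FPM in WT against 2.01, 0.418 and 2.72 FPM in KO, with overlapping groups.

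Few matrix genes had an unadjusted p under 0.05, and none passed the adjusted limit. Of 33 tested, 28 had a log2 fold change above 0, as did 6787 of all 14796 genes. Their median was 0.18 against −0.03 over all genes, and 3 had an unadjusted p under 0.05 and were higher. Thbs1, which encodes the matricellular protein thrombospondin 1, was at 40.7, 51.6 and 57.9 FPM in the WT mice and 68.2, 88.2 and 133 FPM in the KO mice. The groups did not overlap on SFD, and the log2 fold change was 0.95 ± 0.32 (edgeR unadjusted p 0.00949, adjusted p 0.708). On HFD it was 0.78 ± 0.27, and KO-HFD-1454 lay below all WT mice. Thbs2 had 0.61 ± 0.21 and Dcn, the decorin gene, 0.64 ± 0.29, both with overlapping groups. The number of matrix genes with an unadjusted p under 0.05 was 11 without WT-SFD-1445, 12 without KO-SFD-1319, 2 without WT-SFD-1310, and 1 without WT-SFD-1309, KO-SFD-1452 or KO-SFD-1507. The median was 0.06 without KO-SFD-1452.

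Genes of energy metabolism mostly had log2 fold changes below 0, and few had an unadjusted p under 0.05 with all 6 mice compared. Of 39 tested genes for oxidative phosphorylation, 38 had a log2 fold change below 0 and 1 had an unadjusted p under 0.05, Ndufs1, a complex I subunit gene (−0.73 ± 0.30). Their median was −0.38, and 8009 of all 14796 genes were below 0. All 17 tested genes of fatty acid oxidation were below 0, with a median of −0.64, and none had an unadjusted p under 0.05. The adipocyte markers moved with these lists, since all 20 were below 0, with a median of −1.08. None of them had an unadjusted p under 0.05 with all 6 mice, but 15 of 20 were lower without WT-SFD-1445 (median −1.64) and 13 without KO-SFD-1319 (median −2.27), and the median was −0.46 without WT-SFD-1309 and −0.51 without KO-SFD-1507. With the mean of the adipocyte markers as a covariate, the median was −0.13 for oxidative phosphorylation and −0.18 for fatty acid oxidation, and 3 and 5 genes had an unadjusted p under 0.05. Without WT-SFD-1445 and without the covariate the counts were 30 of 39 and 15 of 17, beside 9.97% of all genes that were lower. Without KO-SFD-1319 they were 14 of 39 and 14 of 17, beside 8.08% of all genes. When any of the other 4 mice was left out they were 0 of 39 and 0 of 17. The medians were then nearest to 0 without WT-SFD-1309, at −0.11 for oxidative phosphorylation and −0.22 for fatty acid oxidation, and without KO-SFD-1507, at −0.14 and −0.23.

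The remaining lists held few such genes with all 6 mice compared. None of 18 circadian clock genes had an unadjusted p under 0.05 (median 0.12), although the median was 0.51 without WT-SFD-1445, 0.38 without KO-SFD-1452, −0.10 without WT-SFD-1309 and −0.05 without KO-SFD-1507. None of 6 tested genes that differ between C57BL/6 substrains had an unadjusted p under 0.05 (median −0.05). Without WT-SFD-1445, 2 of these 6 were lower (median 0.09), beside 9.97% of all genes, and without WT-SFD-1310 the median was −0.14. Of 16 tested genes of cholesterol synthesis, 2 were lower (median −0.26). Fdps, farnesyl diphosphate synthase, had −1.28 ± 0.52 with no overlap, and Hmgcs1, which makes HMG-CoA, had −0.67 ± 0.28 with overlap. The count turned on single mice: 7 of the 16 were lower without WT-SFD-1445 and 4 without KO-SFD-1319, whereas 2 were higher and none lower without WT-SFD-1309 (median −0.05), and 1 was higher and none lower without KO-SFD-1507 (median −0.10). Of 17 heat shock and endoplasmic reticulum stress genes, the transcription factor gene Atf4 was higher (0.28 ± 0.12) and the mitochondrial chaperone gene Hspd1 was lower (−0.69 ± 0.25), and the median was −0.13. Neither direction held a gene of this list without WT-SFD-1310. Of 19 tested interferon-stimulated genes, the antiviral gene Oas3 was higher (2.19 ± 0.70, with overlap) and the pro-apoptotic gene Xaf1 was lower (−0.76 ± 0.34, without overlap), and the median was 0.05, or 0.38 without KO-SFD-1507 and −0.11 without KO-SFD-1319. None of these passed the adjusted limit. With library totals in place of TMM factors the medians of 9 of the 37 lists changed sign, all from below to above 0. These were the adaptors and Ras-ERK cascade, contractile receptors, cAMP effectors, cAMP-induced genes, regulators of G protein signalling, cholesterol synthesis, heat shock, the substrain genes and the endothelial markers.

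Among the cell type lists, leucocyte markers stood out by count. Of 14 tested, 8 had an unadjusted p under 0.05, all higher in KO, the median log2 fold change was 0.92, and none passed the adjusted limit. Lyz2, lysozyme of macrophages and neutrophils, was at 45.4, 43.1 and 46.3 in WT and 80.2, 71.0 and 60.5 FPM in KO. C1qb, a complement gene of macrophages, was at 8.74, 11.4 and 11.1 FPM in WT against 22.1, 18.0 and 18.9 FPM in KO. Cd79a, part of the B cell receptor, was at 0.819, 1.33 and 0.578 FPM in the WT mice and 5.22, 3.90 and 6.07 FPM in the KO mice. For these 3 genes each KO mouse was above each WT mouse. Without KO-SFD-1319, the mouse rich in immunoglobulin transcripts, 2 of the 14 had an unadjusted p under 0.05 (median 0.57), and when any of the 3 WT mice was left out 4 did. On HFD the median was 0.25. Ighm, the IgM heavy chain gene, was at 14.2, 18.4 and 11.3 in WT and 1279, 17.3 and 24.5 FPM in KO, so that a single KO mouse carried its difference.

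The other cell type lists held few genes with an unadjusted p under 0.05 when all 6 mice were compared. The 12 brown adipocyte markers had a median of −0.94 with 1 lower gene (Elovl3, −2.58 ± 0.98), the 4 tested smooth muscle markers 0.19 with none, the 10 endothelial markers −0.20 with 1 (Nos3), and the 9 fibroblast markers 0.11 with 1 higher (Dcn). Of the fibroblast markers 3 were higher without WT-SFD-1445 or without KO-SFD-1319, and 0 without any of the other 4 mice, with a median of −0.02 without KO-SFD-1452. The 6 tested blood markers had a median of 0.87 and the 3 tested skeletal muscle markers 0.10, none with an unadjusted p under 0.05. Without WT-SFD-1445 all 6 blood markers were higher (median 3.46), and without KO-SFD-1319, 2 were (median 1.43). The 6 tested cardiac markers had −1.94 with 2 lower, Myl4 and Tnni3, both of which were highest in WT-SFD-1310. Without that mouse the cardiac median was 0.89, with 1 gene higher and none lower. In contrast, 7 of 7 cardiac markers were lower without WT-SFD-1309 (median −2.45) and 6 of 7 without WT-SFD-1445 (median −2.49). Both fits kept WT-SFD-1310, where the cardiac markers summed to 650 FPM. The 6 tested Schwann cell markers had a median of −0.62, which was 0.08 without WT-SFD-1309. The 3 tested neuron markers had −1.84 with 2 lower, Stmn2 and the noradrenaline-synthesising enzyme gene Dbh, both highest in WT-SFD-1309, and without that mouse the median was 0.03 with none lower. Among neuron markers, 5 of 6 tested were lower without WT-SFD-1310, WT-SFD-1445 or KO-SFD-1319 (medians −4.24, −4.22 and −4.05). These fits kept WT-SFD-1309, where the neuron markers summed to 121 FPM. The low-count filter was set anew in each fit, so that more neuron and cardiac markers were tested there than with all 6 mice. The neuron and cardiac counts thus rest largely on a single WT mouse each. Without WT-SFD-1445 and without KO-SFD-1319, 5 and 6 brown adipocyte markers and 4 and 5 endothelial markers were lower. Over all genes, 1529 and 1231 were lower in these fits and 903 and 586 higher, and 488 were lower without WT-SFD-1310. Of 6 lymphatic markers, Pdpn was higher and Prox1 and Mmrn1 were lower (median −0.62), and none of the 6 had an unadjusted p under 0.05 without WT-SFD-1309 or without KO-SFD-1507. A single adrenal marker could be tested (−0.28), and the steroid enzyme genes Cyp11b2 and Hsd3b1 were at 0 in all 6 libraries.

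Egfr lies on chromosome 11, as do Adcy1, Cobl and Pisd-ps1, and the loss of Egfr cannot be told apart in these groups from any difference in the DNA inherited with the floxed allele. Within 10 Mb of the start of Egfr, 69 genes were tested. Of these, 9 (13%) had an unadjusted p under 0.05, 8 higher and 1 lower (Egfr), and 11 (15.9%) had groups that did not overlap. On the rest of chromosome 11 the shares were 5.55% and 7.9% of 1279 genes. The median log2 fold change was −0.08 within the window. Gm11983, next to Adcy1, had 0 counts in the 3 WT libraries and 14, 1 and 16 counts in KO. The pooled level of the KO group was 9.66-fold a floor of 3 counts over the WT group, a figure that leaves out the spread between mice. KO-SFD-1452, at 0.139 FPM, was close to that floor of 0.125 FPM, and the edgeR adjusted p was 0.531. Tns3, the tensin 3 gene of focal adhesions, was at 59.2, 55.1 and 54.7 FPM in WT against 79.0, 70.5 and 77.7 FPM in KO. Its KO mice were all above the WT mice, with a log2 fold change of 0.43 ± 0.12 on SFD (edgeR unadjusted p 0.00258, adjusted p 0.598) and 0.23 ± 0.10 on HFD. Ikzf1, a lymphocyte transcription factor gene, was at 3.96, 2.26 and 2.02 FPM in the WT mice and 10.9, 4.74 and 6.16 FPM in the KO mice (unadjusted p 0.0312, edgeR). It was highest in KO-SFD-1319, as was the summed level of the leucocyte markers. Hus1, Bcl11a and Gm12713 also had an unadjusted p under 0.05, with overlapping groups. In the kidney Camk2b, which lies on the same chromosome farther from Egfr than Adcy1, fell, as given above.

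**Figure D5:**
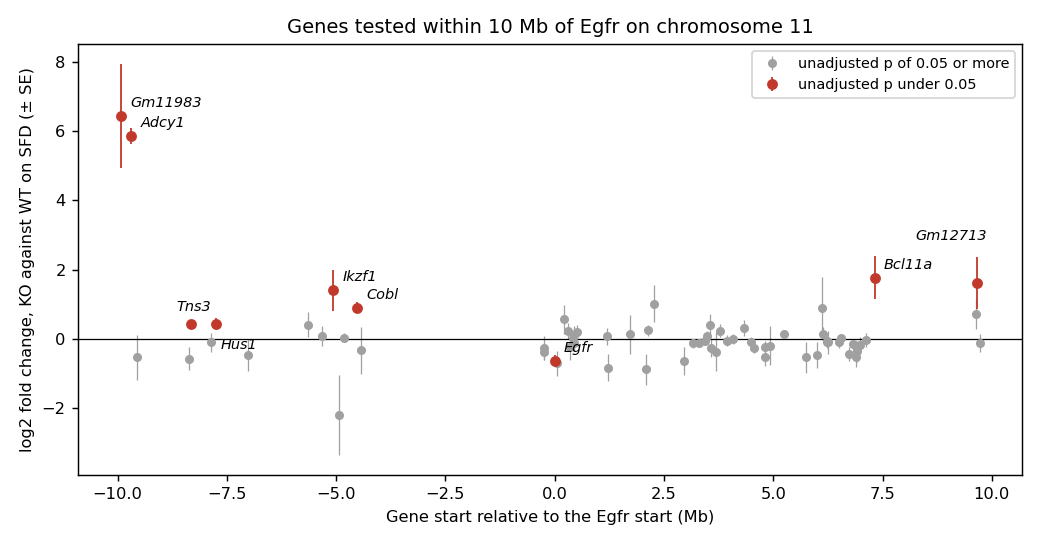
Log2 fold change of KO against WT on SFD (points) with its SE (bars) for the 69 genes tested within 10 Mb of Egfr, by distance from the Egfr start in Mb. Adcy1 (5.84) lies near the left edge beside Gm11983, whose fitted value is no bound because its WT counts were 0, and most other genes lie near 0.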

How the data were processed

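Total RNA depleted of ribosomal RNA was sequenced paired-end with reads of 100 bases, from 1 aorta per mouse. Per the labels and the study's methods, the authors trimmed the reads with cutadapt, aligned them to mm10 with TopHat and used featureCounts to count them per gene. The deposited values are raw counts, 1 column per mouse, with no normalisation. The strand setting and the handling of reads that fit several places are not given in the sources used here. Samples were grouped by the genotype, diet and tissue in their labels. The study gives 4 animals per group, and 3 libraries per SFD group were analysed here. Of 41128 genes, 40254 were placed by identifier in GENCODE vM21. Genes of chromosomes 9, X, Y and MT, and of chromosome 8 beyond position 97565603, were not analysed here, among them Tagln and Cnn1. The result of 1 listed gene is not reported here.

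All 14 aortae were fitted together in edgeR 4.0.16 (R 4.3.3) with TMM factors, filterByExpr, glmQLFit and glmQLFTest, each group having 1 coefficient, and the genotypes were compared within a diet. This left 14796 of 26846 genes with a count in any aorta library, and 81.7% of the genes tested were protein coding. In the 6 SFD libraries 24909 genes had a count. Adjusted p values are Benjamini-Hochberg values over all genes tested. The 16 kidneys were fitted separately (15034 genes). The common dispersion was 0.0531, and the median SE of a log2 fold change on SFD was 0.24. No pair of SFD libraries was a copy of another: the lowest chi-square per gene was 16.8. The scripts were tested on simulated data. An adjusted p under 0.001 is the study's limit, and 0.05 was used to call a single gene.

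The genes named are Egfr and its family, all genes with an adjusted p under 0.05, up to 10 protein-coding genes per direction with the smallest p, groups that do not overlap and a group mean of at least 5 FPM, list members with an unadjusted p under 0.05 or that define their list, neighbours of Egfr within 10 Mb, and Rgs5, Srf and Sp1. The comparison, its genes, the lists and most alternatives were chosen with earlier results of these data known. The alternatives were DESeq2 1.42.0, RLE factors, library totals, no filter, protein-coding genes only, the 6 SFD libraries alone, an adipocyte covariate and leaving out each mouse. Sequences came from RefSeq (GRCm38.p6 promoters) and GENCODE vM21 transcripts, and 3 of the 12 called genes had a promoter entry.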

Additional observations from a re-analysis of the deposited data

Results flagged for a closer look

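A total of 52 sets of values, each from 1 group of 4 libraries, were examined for a library far from the other 3. The same groups served for several genes, and chance alone gives about 1 in 20 such sets. In the HFD aortae KO-HFD-1454 stood apart for Gm2163, at 55.3 FPM with the next mouse at 32.7 FPM, and for Gm13303, at 16.1 FPM with the next at 9.86 FPM. Both genes are members of the chromosome 4 cluster and share sequence, so that they are not separate observations. Rgs5 was at 2029 FPM in WT-HFD-1448 with the next mouse at 1642.3 FPM, and at 2362 FPM in KO-HFD-1454 with the next at 3096 FPM. In the HFD kidneys KO-HFD-1437 stood apart for Pisd-ps1, at 79.5 FPM with the next at 49.0 FPM, and for Pisd-ps2, at 15.7 FPM with the next at 9.13 FPM. The SFD groups of 3 aortae were too small for this comparison.

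Adcy1 had a log2 fold change of −1.04 in the SFD kidney, opposite in sign to the SFD aorta. Cd59a had 0.39 in the SFD kidney, also opposite to the aorta. The tissues were not fitted together, and neither difference between them was tested.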

How the results depend on the processing

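With DESeq2, 16 genes had an adjusted p under 0.001 and 21 under 0.05 on SFD, 40 passed 0.05 on HFD, 2 in the difference between the diets, 26 in the SFD kidney and 1 in the HFD kidney. With library totals 2176 genes had an unadjusted p under 0.05, 2067 higher and 109 lower in KO, against 449 and 518 with TMM factors. Without the filter 7 genes passed 0.001 and 1590 had an unadjusted p under 0.05. With protein-coding genes only, the counts at 0.001 and 0.05 were 2 and 3. With the 6 SFD libraries alone they were 1 and 4, and 488 genes had an unadjusted p under 0.05. With the adipocyte covariate they were 9 and 23, and 28 on HFD. With WT-SFD-1445 and KO-SFD-1507 both left out, an alternative chosen after seeing the data, they were 7 and 20, with 1671 unadjusted. Leaving out each of the 6 SFD aortae in turn gave 1 to 7 genes at 0.001, 5 to 61 at 0.05 and 780 to 2432 unadjusted. Leaving out each of the 14 aortae gave 6 to 20 at 0.05 on HFD and 0 in the difference between the diets. Leaving out each kidney gave 0 to 4 genes on SFD and 0 on HFD. The causes of these shifts were not tested. The log2 fold change of Egfr was −0.75 to −0.52 with each SFD mouse left out −0.34 with library totals and −0.42 with WT-SFD-1445 and KO-SFD-1507 both left out. That of Adcy1 was 5.68 to 5.96 with each SFD mouse left out. RLE factors and edgeR's earlier quasi-likelihood method, the latter also chosen after seeing the data, gave 4 and 12 genes as before. In the main fit and the 15 alternatives read for both genes in the SFD aorta, Egfr stayed lower and Adcy1 higher in KO. No paired analysis was possible because the labels give no replicate number that links WT and KO mice. With 3 mice per group and 6403699 to 10466922 counts per library, genes of low count carry large errors, and an adjusted p above the limit does not show equal levels.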
